A study of Mus musculus with 28 samples.

Results

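The genes described here are 8 genes of the FGF-ERK pathway, namely Fgf4, Fgfr1, Spry4, Spred1, Spred2, Dusp6, Etv4 and Etv5, chosen by name from the 24984 genes listed in nascent RNA tables of mouse embryonic stem cells (mESC). The assay was Bru-seq, in which living cells take up 5-bromouridine (BrU) for some minutes and an antibody then pulls down the RNA made in that time for sequencing. Wild-type (WT) cells and EloA null cells, which were made without Elongin A (EloA), a transcription elongation factor, were compared in 3 conditions with 2 libraries per genotype and condition. In steady state, untreated cells received 2 mM BrU for 10 min. In the recovery conditions, productive elongation was first stopped with 1 µM flavopiridol (FP), a P-TEFb inhibitor, for 60 min, and after the drug was washed out the cells received BrU for 5 min or 10 min. All 12 libraries came from cells expanded on mouse embryonic fibroblast feeders, then separated from them, in medium with LIF and the 2i inhibitors, 1 µM PD0325901, which blocks MEK, and 3 µM CHIR99021, which blocks GSK3. The MEK inhibitor was therefore present in both genotypes. The labels give the parental cells both as CCE28 and as CJ7, and how many clones each genotype represents is not stated in the sources used here.

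In mESC, FGF4 is secreted by the cells themselves and binds FGFR1. The receptor acts through adaptors on RAS, RAF, MEK and finally ERK, a kinase that enters the nucleus and changes transcription. Active ERK raises the transcription of its own restraints, among them the Sprouty and SPRED proteins, which act on RAS and RAF, and DUSP6, a cytoplasmic phosphatase that removes the activating phosphates from ERK. It also raises the ETS factors ETV4 and ETV5, which carry the signal to further genes. Blocking MEK with 2i holds this pathway down and keeps the cells in naive pluripotency.

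All 10 defining markers of mESC, including Pou5f1, Nanog, Zfp42 and Esrrb, were over 0.5 RPKM in both genotypes in every condition. RPKM is the read count of a gene scaled to its counted length in kilobases and to the size of the library. The libraries hold 9857527 to 28547356 reads, recovered from the RPKM values. Of the expressed genes with introns, 96.5 to 96.8% came out as whole reads within 0.05 read when the length was set to that of the introns, and at most 10.5% did so with the whole gene span. The values below are therefore levels of intronic nascent RNA. The EloA null libraries held more nascent RNA of Eloa itself, on chromosome 4 from 136003370 to 136021649, with 1.96 and 1.89 RPKM in steady state against 1.18 and 1.16 in WT. The deposited values do not show the deleted part of the gene, and EloA null steady-state replicate 1 carries a genotype tag of wild type, so these libraries are called the libraries labelled EloA null throughout. The study examined the protein itself in these cells by immunoblot and CUT&RUN, which were not analysed here. It describes the EloA CUT&RUN signal as specific, from a comparison with EloA in null cells and IgG in WT cells. At the ribosomal RNA gene Rn45s it reports an EloA CUT&RUN signal in the null cells near that of the IgG control.

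The promoters of 5 of the 8 genes are in the RefSeq table used here (GRCm38.p6), in 6 windows of 250 bases before a transcription start. Members of the ETS family, to which ETV4 and ETV5 belong, bind a core that was searched only in the form CGGAAG, on both strands. This form is in the windows of the 3 feedback inhibitors in the table and is not in the Fgf4 window or in either Etv5 window. It is in 13.6% of all 32851 windows of this length. The shorter letters GGAA within it were not searched, and the Etv5 window at chr16:22438369-22438618 holds them. The 3 windows that hold CGGAAG are shown 5′ to 3′ on the strand of the gene, with CGGAAG or its reverse complement CTTCCG in capitals.
Dusp6, chr10:99262981-99263230, plus strand: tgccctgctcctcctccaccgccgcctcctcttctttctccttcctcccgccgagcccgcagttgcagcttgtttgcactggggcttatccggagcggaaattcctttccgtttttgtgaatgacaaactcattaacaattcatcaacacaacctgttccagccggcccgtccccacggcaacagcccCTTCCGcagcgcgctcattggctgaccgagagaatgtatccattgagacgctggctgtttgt
Spred1, chr2:117120821-117121070, plus strand: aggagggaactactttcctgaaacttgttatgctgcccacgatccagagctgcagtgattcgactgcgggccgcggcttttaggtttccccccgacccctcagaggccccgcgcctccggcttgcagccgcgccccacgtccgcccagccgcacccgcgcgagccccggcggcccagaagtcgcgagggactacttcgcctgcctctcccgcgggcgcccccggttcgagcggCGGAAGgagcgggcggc
Spred2, chr11:19924192-19924441, plus strand: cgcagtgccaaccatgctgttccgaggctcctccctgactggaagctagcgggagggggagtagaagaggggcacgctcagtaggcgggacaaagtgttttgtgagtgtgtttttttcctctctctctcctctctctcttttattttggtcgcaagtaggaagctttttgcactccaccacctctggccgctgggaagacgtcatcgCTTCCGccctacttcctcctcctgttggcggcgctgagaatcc
The first base of this match lies 62 bases before the start in Dusp6, 17 in Spred1 and 43 in Spred2. The TATA box was searched only in the form TATAAA, on both strands, which is in none of the 6 windows and in 12.4% of all windows. Other forms were not searched, and the Fgf4 window holds the letters TATATATA. The GC box GGGCGG, in 32.7% of all windows, is in the Fgf4, Spred1 and Spred2 windows and in 1 Etv5 window. These matches describe letters only, and binding to them was not analysed here.

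The 8 genes cover a wide range of spans, which matters for the recovery libraries, where polymerase has had only minutes to re-enter the gene. Fgf4 is the shortest, on chromosome 7 from 144861386 to 144865245 (3.86 kb), and its 832 counted bases lie 446 to 1379 bases after the start. Dusp6 lies on chromosome 10 from 99263231 to 99267489 (4.26 kb), with 1466 counted bases. Spry4, on chromosome 18 from 38586247 to 38601347 (15.1 kb), and Etv4, on chromosome 11 from 101769748 to 101785310 (15.6 kb), are both on the minus strand. The long genes of like span are Fgfr1, on chromosome 8 from 25518759 to 25575718 (57.0 kb), Etv5, on chromosome 16 from 22381313 to 22439570 (58.3 kb), and Spred1, on chromosome 2 from 117121071 to 117182279 (61.2 kb). Spred2, on chromosome 11 from 19924442 to 20022597, is the longest at 98.2 kb. Fgfr1 and the last exon of Dusp6 share bases with annotated transcripts on the other strand. The counted bases of Dusp6 lie 860 to 2761 bases after the start and end where that exon begins. The strand setting of the counting is not given in the sources used here, so reads of such partners in counted bases cannot be told apart.

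In steady state Fgf4 and Etv5 stood far above the other 6 genes. Fgf4 had 12.7 and 12.4 RPKM in WT and 14.1 and 18.4 in the libraries labelled EloA null. Etv5 had 12.6 and 11.9 in WT and 12.3 and 11.95 in the libraries labelled EloA null. Both genes were at percentiles 96.0 to 97.9 of the expressed genes in the 4 steady-state libraries, and their WT ranges overlapped.

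The receptor and the SPRED genes made up the middle of the order in WT. Fgfr1, whose product receives the FGF4 signal, had 4.82 and 4.55 RPKM in WT against 5.07 and 5.35 in the libraries labelled EloA null. Spred2, a membrane-bound inhibitor of RAS-RAF signalling, had 3.32 and 3.44 against 3.07 and 3.67. Spred1, its paralog, had 2.29 and 2.71 in WT but 1.66 and 1.60 in the libraries labelled EloA null, so that its groups did not overlap.

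The lowest steady-state levels in WT were those of Spry4, Dusp6 and Etv4. Spry4, a Sprouty inhibitor of receptor tyrosine kinase signalling, had 1.38 and 1.46 RPKM in WT against 1.93 and 2.77. Dusp6 had 1.03 and 1.81 in WT against 1.504 and 1.54, with all 4 libraries in 1 range. Etv4 had 0.823 and 0.8498 in WT against 1.18 and 1.44, and it was the lowest of the 8 genes in both genotypes.

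The order of the levels differed between genotypes at 1 place, since Spry4 was above Spred1 in the libraries labelled EloA null and below it in WT. In WT the neighbours Fgf4 and Etv5, and the neighbours Spry4 and Dusp6, did not differ beyond their spread. In the libraries labelled EloA null no neighbours overlapped. The depth behind these values was uneven. Etv5 had 4689 to 21774 reads per library and Spred2 1915 to 9767, whereas Dusp6 had 17 to 139 and Etv4 55 to 534. Counting alone gives a relative error of 24.3% for Dusp6 and 13.5% for Etv4 in their shallowest libraries, and these errors cover counting only.

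**Figure D1:**
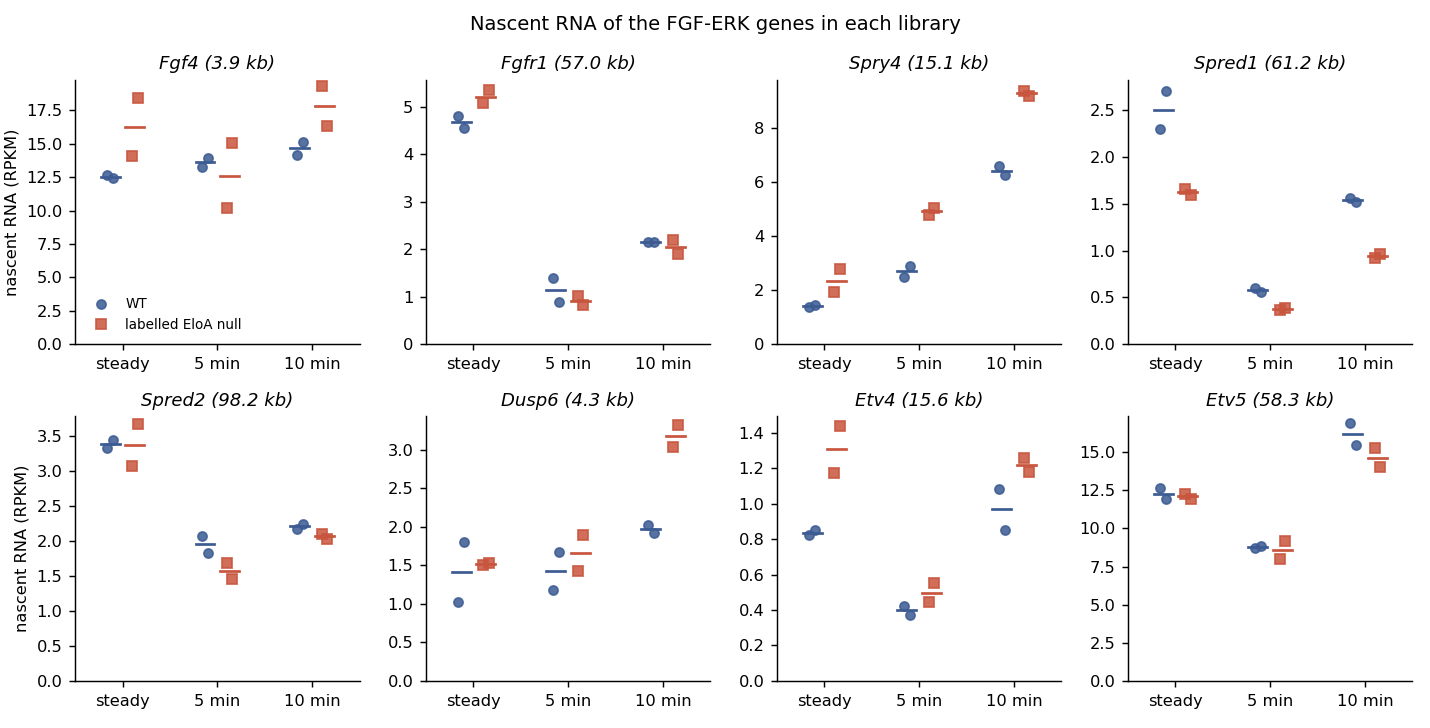
Nascent RNA level (RPKM, vertical axis, own scale from 0 in each panel) of the 8 genes in steady state and 5 and 10 min after flavopiridol removal. Each point is 1 library (circles WT, squares labelled EloA null), each bar the mean of 2. Spry4 and Etv4 are higher and Spred1 lower in the libraries labelled EloA null in every condition. The means of Fgfr1, Spred1, Spred2, Etv4 and Etv5 are lowest at 5 min in both genotypes.

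The first comparison asks whether the nascent RNA of these genes differed between the genotypes. Spry4 was higher in the libraries labelled EloA null in each of the 3 conditions and Spred1 was lower in each, with no overlap between the groups, whereas Etv5 and Fgfr1 differed by at most 1.25-fold in their means. Etv4 was also higher without overlap in each condition, but at 5 min it was below the RPKM limit and was not tested. None of these differences passed the test within a condition. By limma on log2(RPKM + 0.1), adjusted over all genes tested in that condition, 0 of 11347, 8985 and 10241 genes reached an adjusted p of 0.05 in steady state, at 5 min and at 10 min (0% called). At an unadjusted p under 0.05 there were 2083, 846 and 2098 genes, and 3 of 8, 1 of 7 and 3 of 8 of the members, against 18.4%, 9.42% and 20.5% of all genes tested. An exact permutation test of 2 against 2 libraries cannot give a two-sided p below 0.33. The study describes its duplicates as independent experiments, and the p-values measure the spread between them.

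Of the 4 inhibitors among the 8 genes, Spry4 alone was higher without overlap in all 3 conditions. In steady state its mean in the libraries labelled EloA null was 1.65 times that in WT, a log2 difference of 0.67 (standard error 0.19, limma adjusted p = 0.188). At 5 min it had 2.49 and 2.91 RPKM in WT against 4.79 and 5.06, a log2 difference of 0.85 (standard error 0.17, limma adjusted p = 0.262). At 10 min it had 6.60 and 6.25 against 9.39 and 9.19, a log2 difference of 0.53 (standard error 0.09, limma adjusted p = 0.112). With the trend of each library with GC content removed, an alternative chosen after the data were seen, the differences were 0.51, 0.88 and 0.34. Of the 8217 genes tested in all 3 conditions, 722 (8.79%) were higher without overlap in every condition, so that Spry4 is 1 of many.

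Spred1, whose loss in people causes a RASopathy, showed the opposite difference. Its WT mean was 1.54-fold that of the libraries labelled EloA null in steady state, a log2 difference of -0.58 (standard error 0.11, limma adjusted p = 0.123). At 5 min it had 0.604 and 0.554 RPKM in WT against 0.367 and 0.391, a log2 difference of -0.50 (standard error 0.26, limma adjusted p = 0.625). At 10 min it had 1.56 and 1.51 against 0.924 and 0.967, a log2 difference of -0.64 (standard error 0.11, limma adjusted p = 0.111). After removal of the GC trend the differences were -0.45, -0.44 and -0.55. Of the 8217 genes, 826 (10.1%) were lower without overlap in every condition.

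Both genes passed in a fit in which all 12 libraries shared 1 estimate of the spread, where 131 (1.09%), 496 (4.14%) and 366 (3.06%) of 11975 genes were called in steady state, at 5 min and at 10 min. Spred1 was called lower in all 3 conditions, where 0.326%, 2.19% and 0.868% of all genes were (limma adjusted p = 0.0386, 0.0330 and 0.0215). Spry4 was called higher at 5 min, where 1.95% of all genes were (limma adjusted p = 0.0264) but not in steady state (0.0956) or at 10 min (0.112). These calls depended on having both replicates. When any 1 of the 4 libraries of a condition was left out, Spred1 lost its call in that condition, with differences of -0.70 to -0.47 in steady state, -0.56 to -0.45 at 5 min and -0.67 to -0.62 at 10 min. Spry4 kept its 5-min call without WT replicate 2, and lost it without WT replicate 1 or either library labelled EloA null, with differences of 0.74 to 0.95. The spread of the lone remaining library was then taken from the other groups.

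Spred2, the paralog of Spred1, did not share its difference in steady state, where the log2 difference was -0.01 (95% interval -0.32 to 0.30). At 5 min it had 2.07 and 1.83 RPKM in WT against 1.69 and 1.45, and at 10 min 2.17 and 2.24 against 2.10 and 2.03. The groups did not overlap at either time, with log2 differences of -0.30 (95% interval -0.71 to 0.11) and -0.09 (95% interval -0.34 to 0.16).

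Dusp6 differed most at 10 min, with 2.03 and 1.92 RPKM in WT against 3.04 and 3.32. The mean of the libraries labelled EloA null was 1.61 times that of WT, with a log2 difference of 0.66 (standard error 0.10, limma adjusted p = 0.103). At 5 min it had 1.18 and 1.67 in WT against 1.43 and 1.90, from 17 to 48 reads, and the groups overlapped there as they did in steady state.

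The ETS factors behaved differently from each other. In steady state the mean of Etv4 in the libraries labelled EloA null was 1.56 times that in WT, a log2 difference of 0.58 (standard error 0.12, limma adjusted p = 0.147). At 10 min Etv4 had 1.08 and 0.854 RPKM in WT against 1.26 and 1.18, a log2 difference of 0.31 (95% interval -0.10 to 0.72). With the GC trend removed, the differences of Etv4 were 0.36 in steady state and 0.049 at 10 min. Etv4 was below the limit of a group mean of 0.5 RPKM at 5 min, with 0.420 and 0.375 in WT and 0.443 and 0.554 in the libraries labelled EloA null, and was not tested within that condition. For Etv5 the log2 difference was -0.02 (95% interval -0.27 to 0.23) in steady state, -0.04 (-0.48 to 0.41) at 5 min and -0.14 (-0.41 to 0.12) at 10 min. With each library centred on its median the 5-min value of Etv5 changed sign, to 0.03.

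Neither the ligand nor the receptor was called between the genotypes, although Fgf4 was higher without overlap in steady state and at 10 min, and Fgfr1 in steady state. Fgf4 at 5 min had 13.3 and 13.9 RPKM in WT against 10.2 and 15.0, and at 10 min 14.2 and 15.1 against 19.3 and 16.3. Its log2 differences were 0.36 (95% interval -0.06 to 0.78) in steady state, -0.14 (-0.75 to 0.48) at 5 min and 0.27 (-0.04 to 0.59) at 10 min. After removal of the GC trend the steady-state value was 0.13 and the 10-min value -0.0073. Fgfr1 had 1.39 and 0.898 in WT against 1.01 and 0.822 at 5 min, and 2.15 and 2.16 against 2.19 and 1.91 at 10 min. Its log2 differences were 0.15 (-0.09 to 0.39), -0.27 (-0.90 to 0.36) and -0.07 (-0.37 to 0.22), and the steady-state value was -0.0026 with the GC trend removed.

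Counted over the members, the share without overlap has to be read against that of all genes. In steady state 4 of 8 (Fgf4, Fgfr1, Spry4 and Etv4) were higher without overlap and 1 was lower, where 32% and 21.4% of all genes tested were. At 5 min 1 of 7 was higher and 2 were lower, against 15.4% and 25%. At 10 min 4 of 8 were higher and 3 were lower, against 33.5% and 21.8%. Past 1.5-fold in the means there were 2 higher (Spry4 and Etv4) and 1 lower (Spred1) in steady state, where 7.21% and 2.1% of all genes were, 1 higher and 1 lower at 5 min (5.4% and 6.72%), and 1 of each at 10 min, Dusp6 and Spred1 (9.41% and 3.01%). The median log2 difference of the members was 0.15, -0.14 and 0.10 in the 3 conditions, beside 0.03, -0.06 and 0.06 for all genes tested. Without the library tagged wild type, the steady-state log2 differences were 0.92 for Spry4, -0.61 for Spred1, 0.72 for Etv4, 0.55 for Fgf4, 0.19 for Fgfr1, 0.16 for Dusp6 and -0.04 for Etv5, and that of Spred2 turned to 0.11.

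Markers of cell states also moved with genotype. The sum of the 10 mESC markers was 180.0 to 183 RPKM in WT against 178 to 201 in steady state, 212 to 254 against 159 to 225 at 5 min, and 267 to 299.7 against 261 to 265 at 10 min, where the groups did not overlap. Single markers within this sum went in opposite directions at 10 min. Zfp42 had 123 and 151 RPKM in WT against 109 and 116, and Pou5f1 12.4 and 13.1 against 18.3 and 16.4. The summed level of 6 epiblast-like and primed markers, of which Otx2, Dnmt3b and Lefty2 were over 0.5 RPKM, was 3.71 to 3.96 RPKM in WT and 4.60 to 4.92 in the libraries labelled EloA null in steady state. It was 1.85 to 1.86 against 2.11 to 2.16 at 5 min and 3.85 to 3.86 against 4.37 to 5.52 at 10 min. Within this sum Dnmt3b was higher without overlap in all 3 conditions, as were 8.79% of all genes tested in each. Lefty2 overlapped between the groups in every condition and Otx2 at 5 min. The sum of 12 fibroblast markers was 1.88 to 2.33 in WT against 1.55 to 1.74 in steady state, with 0 of 12 over 0.5 RPKM in the mean of a group and Col1a1 and Col1a2 at up to 0.577 and 0.542 in single libraries. It was 2.41 to 2.42 against 1.26 to 1.92 at 5 min and 2.95 to 4.08 against 2.05 to 2.88 at 10 min, where Col1a1 and Acta2 were over that limit in WT. The sum of 5 neural markers was 0.966 to 1.08 against 1.41 to 1.74 in steady state, with Tubb3 over the limit in the mean of both groups, 0.297 to 0.3567 against 0.3570 to 0.502 at 5 min, and 0.294 to 0.365 against 0.562 to 0.565 at 10 min. None of 6 primitive endoderm markers reached the limit in any condition. Their sum was 0.486 to 0.567 in WT against 0.626 to 0.720 in steady state, and was lower in the libraries labelled EloA null after release, with 0.117 to 0.185 against 0.105 to 0.115 at 5 min and 0.283 to 0.323 against 0.219 to 0.239 at 10 min. The part of these cell states in the genotype differences was not tested, and fewer cells of a type and less RNA per cell cannot be told apart in these bulk samples.

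**Figure D2:**
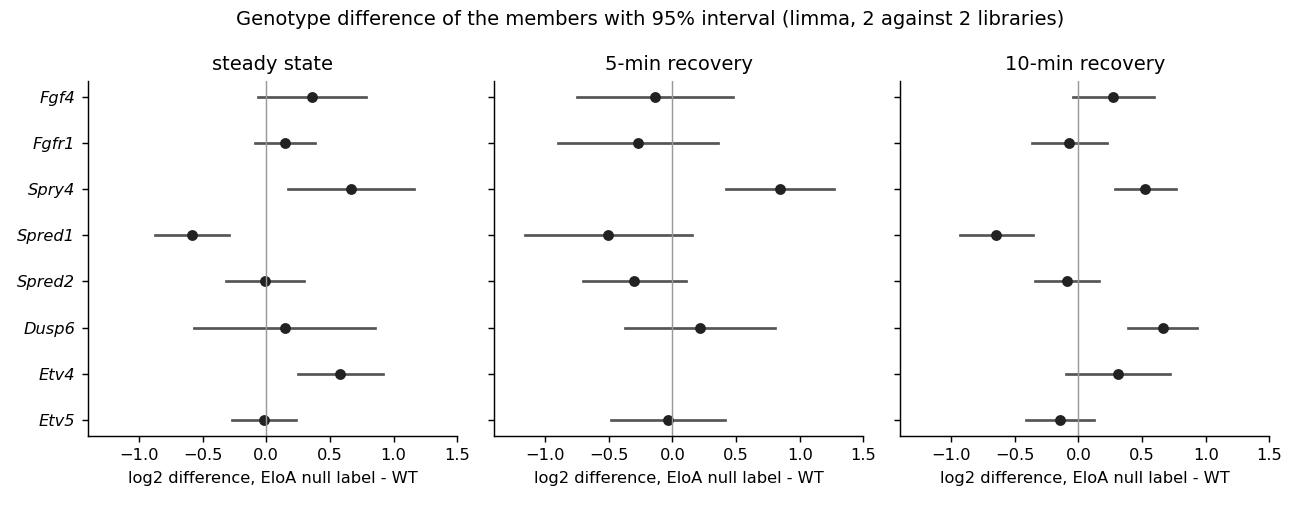
Log2 difference in RPKM between the libraries labelled EloA null and WT (horizontal axis, positive where the former are higher) for each gene (vertical axis) in the 3 conditions, with 95% intervals from limma on 2 against 2 libraries. The intervals of Spry4 lie above 0 in all 3 panels and those of Spred1 below 0 in steady state and at 10 min, before adjustment over all genes. Etv4 was not tested at 5 min.

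The second comparison asks how each gene returned after flavopiridol was removed. Spry4 rose in both genotypes at both times and Fgfr1 and Spred1 fell in both genotypes at both times, under every scaling run, and Spred2 fell at 10 min. Here the 12 libraries were fitted together, each scaled to its own median over expressed genes, and 67.1% and 65% of all genes were called in WT at 5 and 10 min, and 70.8% and 66.1% in the libraries labelled EloA null. Of the 8 members, 5 and 5 were called in WT and 6 and 5 in the libraries labelled EloA null, a share near that of all genes. RPKM shares a fixed total among genes, so a change is relative to the other genes of a library and not an amount per cell. The 5-min libraries also had a shorter BrU pulse than the steady-state libraries, and the pulse and the release cannot be told apart there.

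Spry4 rose more than any other member. Its log2 change was 1.49 (standard error 0.18, limma adjusted p = 0.000133) at 5 min and 2.09 (standard error 0.18, limma adjusted p = 2.94e-05) at 10 min in WT, a 4.24-fold rise at 10 min. In the libraries labelled EloA null it was 1.84 and 1.93 (limma adjusted p = 3.58e-05 and 3.61e-05). The 1491 genes of like span, within 1.25-fold of its own, had median changes of -0.05 and 0.71 in WT and -0.02 and 0.72 in the libraries labelled EloA null. At 10 min in WT, its change was at the 98.7th percentile of all genes. The rise remained 0.88 and 1.06 at 5 min on the values as deposited.

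Etv4, a gene of almost the same span, did not rise on the scaled values. The counted bases differ in position, at 177 to 10592 bases after the start in Spry4 and 202 to 14720 in Etv4. The part of this position in the contrast was not tested. The log2 change of Etv4 was -0.38 at 5 min in WT (limma adjusted p = 0.0287) and -0.53 in the libraries labelled EloA null (limma adjusted p = 0.00569). The WT call was lost without any 1 of the 4 WT libraries concerned, with changes of -0.42 to -0.34. At 10 min the changes of Etv4 were 0.18 (95% interval -0.12 to 0.47) and -0.11 (-0.40 to 0.19), beside like-span medians of 0.69 and 0.71. With quantile normalization both 5-min calls of Etv4 were lost and the 10-min change in WT was a called rise of 0.51 (limma adjusted p = 0.00968).

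Of the 3 genes of about 60 kb, Fgfr1 and Spred1 fell under every scaling run, whereas Etv5 did not fall on the scaled values but did on the values as deposited at 5 min and with quantile normalization. Fgfr1 changed by -1.37 and -1.08 in WT (limma adjusted p = 9.19e-05 and 0.000329) and by -1.64 and -1.32 in the libraries labelled EloA null (limma adjusted p = 3.00e-05 and 0.000108), a 2.58-fold fall in WT at 5 min. Genes of like span had medians of -0.39 and -0.53 in WT. Spred1 changed by -1.36 and -0.67 in WT (limma adjusted p = 1.89e-05 and 0.000667) and by -1.16 and -0.73 in the libraries labelled EloA null (limma adjusted p = 2.80e-05 and 0.000370). Its like-span medians were -0.33 and -0.57 in WT.

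Etv5 had a lower RPKM at 5 min than in steady state and a higher one at 10 min in every library. It had 8.73 and 8.85 RPKM in WT and 8.00 and 9.17 in the libraries labelled EloA null at 5 min, and 16.9 and 15.4 against 15.2 and 14.01 at 10 min. On the scaled values its change was 0.16 (95% interval -0.07 to 0.39) at 5 min and 0.39 (limma adjusted p = 0.00840) at 10 min in WT. In the libraries labelled EloA null it was 0.30 (limma adjusted p = 0.0245) and 0.25 (limma adjusted p = 0.0556). The 5-min call was lost without either steady-state library labelled EloA null or without 5-min replicate 2, with changes of 0.22 to 0.38. The like-span medians were -0.38 and -0.54 in WT and -0.36 and -0.57 in the libraries labelled EloA null, all below the changes of Etv5. The direction of Etv5 depended on the scaling, since on the values as deposited, where the median of all genes itself shifted by -0.59 in WT and -0.72 in the libraries labelled EloA null, its 5-min changes were -0.48 and -0.49 (limma adjusted p = 0.00268 and 0.00193). Under quantile normalization all 4 changes of Etv5 were called falls, of -0.59 to -0.34 (limma adjusted p of at most 0.00724), so that the 10-min rise in WT became a fall.

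Spred2, the longest gene, was not called at 5 min, with changes of -0.15 (95% interval -0.42 to 0.11) in WT and -0.29 (limma adjusted p = 0.0536) in the libraries labelled EloA null. On the values as deposited these were called falls, of -0.76 and -1.05, as they were with quantile normalization, of -0.50 and -0.66. At 10 min it fell by 0.59 and 0.69 on the log2 scale (limma adjusted p = 0.00212 and 0.000898). Its like-span medians at 10 min were -0.75 and -0.79.

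The short genes Fgf4 and Dusp6 had the widest intervals. Fgf4 rose at 5 min in WT, with a change of 0.75 (standard error 0.20, limma adjusted p = 0.0100), and this call was lost without WT 5-min replicate 2, where it was 0.62, and on the values as deposited, where it was 0.12. Its other changes were 0.22 (95% interval -0.24 to 0.68) at 10 min in WT, and 0.42 (-0.04 to 0.88) and 0.12 (-0.34 to 0.58) in the libraries labelled EloA null. The like-span medians of Fgf4 at 5 and 10 min were 0.28 and 0.36 in WT and 0.26 and 0.44 in the libraries labelled EloA null. Quantile normalization turned all 4 changes of Fgf4 negative, between -0.59 and -0.03, and those other than the 5-min change in WT were called falls (limma adjusted p of at most 0.0324). Dusp6 rose in the libraries labelled EloA null, by 0.87 at 5 min (limma adjusted p = 0.0229) and 0.99 at 10 min (limma adjusted p = 0.0141). These calls were lost without either steady-state library labelled EloA null or without replicate 2 of the recovery time, with changes of 0.69 to 1.05 and 0.89 to 1.08. On the values as deposited the 5-min change of Dusp6 was 0.11 and was not called (limma adjusted p = 0.708), and the 10-min change was 1.02 (limma adjusted p = 0.00701). The like-span medians of Dusp6 at 5 and 10 min were 0.30 and 0.39 in WT and 0.28 and 0.50 in the libraries labelled EloA null. In WT the changes of Dusp6 were 0.63 (95% interval -0.02 to 1.28) and 0.49 (-0.16 to 1.14), and without WT steady-state replicate 2 both passed, as did the first without WT 5-min replicate 1. Without the library tagged wild type, the changes at 5 and 10 min in the libraries labelled EloA null were 1.59 and 1.68 for Spry4, -1.67 and -1.36 for Fgfr1, -1.13 and -0.71 for Spred1, -0.41 and -0.81 for Spred2, and -0.66 and -0.24 for Etv4, and Spred2 then passed at 5 min as well (limma adjusted p = 0.0280).

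**Figure D3:**
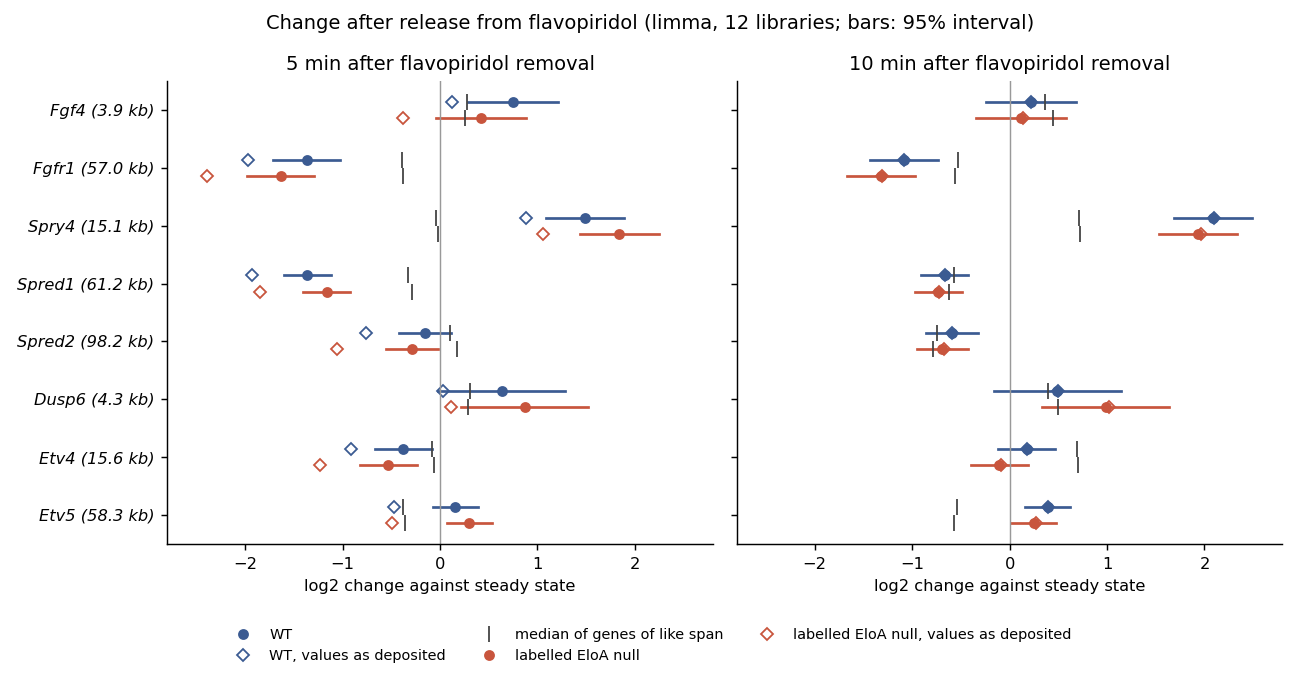
Log2 change against steady state (horizontal axis) of each gene (vertical axis, with its span) 5 and 10 min after flavopiridol removal. Filled circles with 95% intervals are scaled values, open diamonds values as deposited, and vertical ticks the median of genes within 1.25-fold of the same span. Spry4 lies at 1.49 to 2.09 on the scaled values, to the right of its ticks in both panels, and Fgfr1 at -1.64 to -1.08, to the left of them.

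Ratios between genes of like span within a library show the same data free of scaling. For all 5 pairs whose spans differ by at most 1.25-fold the ratios are given as a description over the 4 libraries of a condition, since these genes were chosen with their values known. The Spry4 level over the Etv4 level was 1.64, 1.70 and 1.92 (lowest, median and highest) in steady state, 5.93, 8.45 and 10.8 at 5 min, and 6.08, 7.38 and 7.81 at 10 min. Both recovery times lay above steady state with no overlap. This pair is matched on span and not on the position of the counted bases.

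Etv5 over Fgfr1 was 2.23, 2.52 and 2.62 in steady state, 6.26, 8.88 and 11.2 at 5 min, and 6.97, 7.24 and 7.85 at 10 min. Etv5 over Spred1 was 4.40, 6.44 and 7.49 in steady state, 14.5, 18.9 and 23.5 at 5 min, and 10.2, 12.7 and 16.5 at 10 min. Etv5 was thus further above both genes after release than before it, in all 8 recovery libraries.

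The other pairs overlapped between conditions. Fgfr1 over Spred1 was 1.68, 2.58 and 3.35 in steady state, 1.62, 2.20 and 2.76 at 5 min, and 1.38, 1.70 and 2.37 at 10 min. Fgf4 over Dusp6 was 6.86, 10.7 and 12.3 in steady state, 7.12, 8.14 and 11.3 at 5 min, and 4.91, 6.67 and 7.90 at 10 min. Within a condition, the libraries labelled EloA null had the higher ratio of Etv5 to Spred1 in all 3 conditions, with no overlap.

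**Figure D4:**
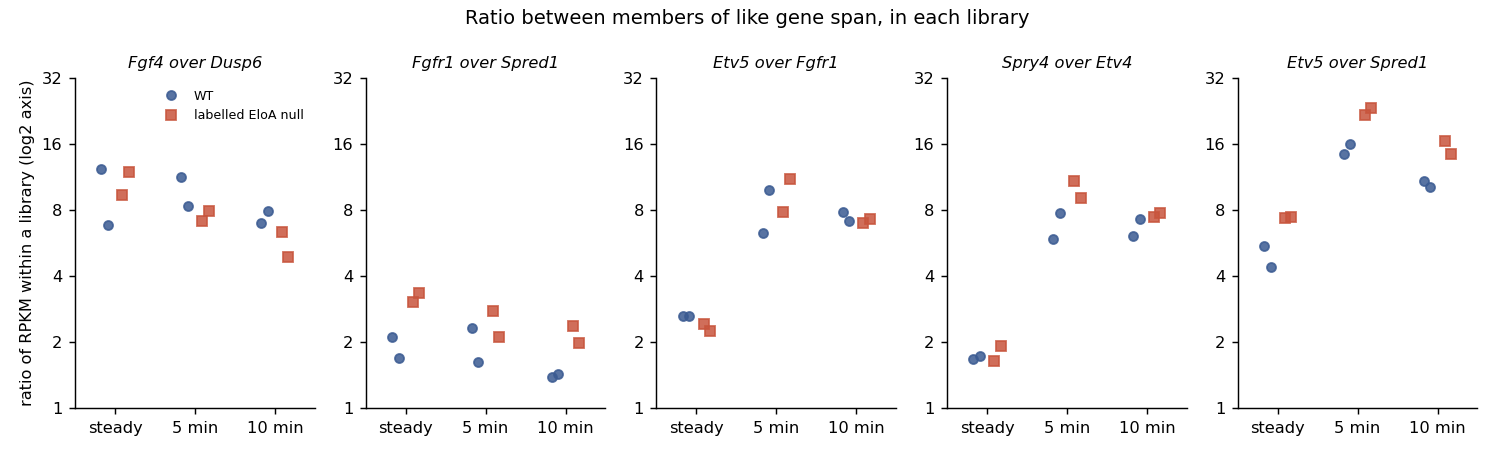
Ratio of the RPKM of 2 genes of like span within 1 library (vertical axis, log2 scale) in steady state and 5 and 10 min after flavopiridol removal. Each point is 1 library (circles WT, squares labelled EloA null). Spry4 over Etv4, Etv5 over Fgfr1 and Etv5 over Spred1 are higher in every recovery library than in any steady-state library.

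The third comparison asks whether the genotype difference itself changed after release. The test over all 11975 genes called 17 genes (0.142%) at 5 min and 1 gene (0.00835%) at 10 min, and 0 of the 8 members at either time, with none at an unadjusted p under 0.05 either (6.58% and 1.65% of all genes). For Spry4 the change of the log2 difference was 0.35 (95% interval -0.22 to 0.92) at 5 min and -0.15 (-0.72 to 0.41) at 10 min. For Spred1 it was 0.20 (-0.14 to 0.54) and -0.07 (-0.41 to 0.27). The widest interval was that of Dusp6, with 0.24 (-0.68 to 1.15) and 0.50 (-0.42 to 1.42). A larger rise of Spry4 in 1 genotype than in the other was therefore not detectable with these libraries, and the intervals leave room for changes of up to 0.92.

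The rest of the pathway was read from a list of 63 genes, of which 55 are not among the 8. In the separate tests of genotype 39, 32 and 33 of the 55 passed the filter on low values, and 0 were called in any condition. At an unadjusted p under 0.05 there were 11, 5 and 10, where 18.4%, 9.42% and 20.5% of all genes tested were. In the fit of all 12 libraries, with 41 of the 55 tested, Spry2 was called higher and Errfi1 lower at 5 min, and Spry2 higher at 10 min. Of all genes in that fit, 1.95% were called higher and 2.19% lower at 5 min, and 2.19% higher at 10 min. With each library of the condition left out in turn, Spry2 at 5 min kept its call in 3 of 4 cases, and the other 2 calls were lost in all 4. The median log2 differences of the tested genes of the 55 were 0.08, -0.03 and 0.04 in the 3 conditions, beside 0.03, -0.06 and 0.06 for all genes.

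Of the other ligands and receptors none approached Fgf4 or Fgfr1. The ligands Fgf3 and Fgf17 had 0.283 to 0.303 RPKM in WT and 0.463 to 0.648 in the libraries labelled EloA null in steady state, and Fgf2 0.106 and 0.118 in WT. Among receptors, Fgfrl1, which lacks a kinase domain, had 0.554 and 0.450 in WT, Fgfr2 0.243 and 0.231, and Fgfr4 0.0848 and 0.0809. Fgfr1 was therefore the only FGF receptor with a kinase domain over 0.5 RPKM.

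None of the genes of the signalling chain named here was called between the genotypes, in either fit. The adaptor genes Gab1, Grb2 and Frs2 had 8.02 and 8.23, 4.03 and 4.04, and 2.00 and 2.21 RPKM in WT in steady state. Nras had 7.21 and 6.89, and Hras 1.19 and 1.37. The kinase genes Araf and Braf had 2.11 and 1.99, and 1.71 and 1.79. Map2k1 and Map2k2, which encode MEK1 and MEK2, had 3.23 and 3.13, and 2.83 and 2.20.

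Among feedback inhibitors outside the 8 genes, Spry2 had 7.07 and 6.86 RPKM in WT against 9.89 and 9.91 in steady state, a log2 difference of 0.50 (limma adjusted p = 0.119). Spry2 thus differed in the same direction as Spry4. Spry2 lies on chromosome 14, as do Fgf17 and Il17rd. The 416 tested genes of that chromosome had a median log2 difference of 0.50, against 0.02 for the other genes. At 5 and 10 min the medians of chromosome 14 were 0.46 and 0.51. The part of the chromosome in the difference of Spry2 was not tested. Of the 8 genes described here, 0 lie on it. Errfi1, an inhibitor of the EGF receptor, had 2.12 and 1.94 in WT against 1.62 and 1.03, and Il17rd, an FGF pathway inhibitor, 1.46 and 1.48 against 1.86 and 2.25.

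The ERK phosphatase genes Dusp5, Dusp7 and Dusp4 were low, with 0.574 and 0.587, 0.377 and 0.479, and 0.352 and 0.312 RPKM in WT. Of the ETS genes, Erf, a repressor that ERK expels from the nucleus, had 8.27 and 10.6 in WT against 13.1 and 17.7, and Etv1, a relative of Etv4 and Etv5 in the PEA3 subfamily, 1.86 and 2.24 against 3.39 and 3.41, a log2 difference of 0.71 (limma adjusted p = 0.111). Elk4 had 2.66 and 2.28 against 2.90 and 2.71. Of the other ERK targets Ier2 had 2.89 and 3.41 against 4.12 and 5.59, Fos 0.294 and 0.726 against 0.506 and 0.363, and Phlda1 0.608 and 0.347 against 0.628 and 0.780.

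After release 13 of the 41 tested genes of the list rose and 11 fell at 5 min in WT, and 12 rose and 13 fell at 10 min, where 34%, 33.1%, 34.6% and 30.4% of all genes did. In the libraries labelled EloA null 14 rose and 16 fell at 5 min, and 11 rose and 15 fell at 10 min (36.2%, 34.5%, 35.1% and 31% of all genes). At 10 min in WT the 10 listed genes of 10 to 30 kb had a median log2 change of 0.66. The 13 of 30 to 100 kb had one of -0.56. The medians of all genes in these span classes were 0.56 and -0.42.

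Spry4 was not alone among inhibitors in rising. Spry2 changed by 1.26 and 1.12 at 5 and 10 min in WT, and Dusp4, a nuclear ERK phosphatase, by 2.07 and 1.89, all called (limma adjusted p of at most 0.05). Il17rd fell by 1.96 and 1.59 on the log2 scale. Errfi1 changed by -0.74 at 5 min and 0.84 at 10 min in WT, both called (limma adjusted p = 0.00926 and 0.00533). Fgfrl1 changed by -1.46 and -0.61, both called. The ETS gene Etv1 changed by -0.16 at 5 min, which was not called, and fell by 1.06 on the log2 scale at 10 min. Of the 8 tested ETS genes, Etv4 and Etv5 included, 3 rose and 2 fell at 5 min in WT. At 10 min 4 rose and 2 fell, where 34%, 33.1%, 34.6% and 30.4% of all genes did.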

How the data were processed

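Nascent RNA tables of 12 of the 28 samples were used, with 2 libraries per genotype and condition. The authors deposited RPKM values per gene, which they made with Bowtie2 2.3.4.3, SAMtools, featureCounts 1.6.1 and edgeR on the mm10 and dm3 genomes. The methods state that whole RefSeq genes were counted, but the values turned into whole reads with intronic lengths (tolerance 0.05). Of 24984 listed genes, 24420 matched the annotation (GRCm38.p6) by symbol, 423 by an older symbol and 141 not at all. Libraries held 9857527 to 28547356 reads.

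RPKM values were tested as log2(RPKM + 0.1) with limma 3.58.1 (R 4.3.3), with Benjamini-Hochberg adjustment over all genes with a mean over 0.5 RPKM in either genotype. Recovery and the change of the genotype difference were fitted on 12 libraries, each scaled to its median over expressed genes. A fold change on this scale understates that of low genes. Scripts were tested on simulated data. Groups follow the sample titles. The members, lists, pairs and tests were chosen with earlier results of these data known. The named genes were the 8 members, Eloa, in each role of the pathway list the 3 genes with the highest mean RPKM in WT in steady state and any called, and the 3 genes most like each member over the 12 libraries. The smallest two-sided p of an exact permutation test was 0.333. Replicate numbers were checked for pairing. The other 16 samples, chromatin libraries, were not used here. Alternatives were another pseudocount, no filter, quantile normalization, centring, other scalings, removal of a GC trend, a replicate block, 1 fit of all 12 libraries, and leaving out each library. The GC trend and the alternatives of the fit of all 12 libraries were added after seeing the data. Some genes that the rule names are not reported here.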

Additional observations from a re-analysis of the deposited data

Results flagged for a closer look

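The genotype difference changed between steady state and the 5-min recovery for 17 genes and between steady state and the 10-min recovery for 1 gene, by limma's test of the interaction over 11975 genes. None of the 17 or the 1 is among the 8 genes of the FGF-ERK pathway. The gene called at 10 min was Mir7048, with a log2 change of the difference of 5.56 (limma adjusted p = 0.00182) and a mean of 0.234 RPKM over the libraries. Of those called at 5 min, Lhb had the smallest adjusted p (log2 change 3.05, limma adjusted p = 0.00292), and most of the others are microRNA genes, whose short length leaves few reads.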

How the results depend on the processing

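Over the members and all alternatives, 853 values kept their direction and their side of the threshold, 39 lost and 20 gained a call, and 53 changed sign. Spry4, Fgfr1 and Spred1 kept their recovery calls in every alternative run. Within conditions, the count of genes called between the genotypes rose from 0 to 131, 496 and 366 in the fit of all 12 libraries (members 1, 2 and 1), and at 10 min to 5 with a pseudocount of 1, 6 with quantile normalization, 12 with centring and 10 with the GC trend removed. Leaving out a library gave 0 to 60 genes at 5 min and 0 to 33 at 10 min.

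Same-numbered libraries of a condition had deviations that correlated at 0.093 to 0.108, and with 2 pairs the numbers were not taken as pairing the samples. With the replicate block 128 genes were called at 5 min, 0 of them members, and 232, 791 and 632 in the fit of all 12 libraries. That fit called 364 and 326 genes in steady state and at 5 min with a pseudocount of 1, which left Spry4 as the 1 member called at 5 min. Without single libraries it called 17 to 39, 183 to 471 and 21 to 54 genes, and 0, 0 to 1 and 0 members.

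Genes with a changed genotype difference numbered 89 at 5 min and 25 at 10 min without the filter, 3 at 10 min with a pseudocount of 1, and 9 to 41 and 0 to 3 without single libraries. Members called in WT at 5 min numbered 3 to 5 without single libraries.

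The cause of the changes of sign was not tested. Those of the recovery changes of Etv5 on the values as deposited, of Etv5 with quantile normalization, and of Fgf4 with quantile normalization except at 5 min in WT passed the test in the opposite direction. With the GC trend removed, Fgfr1 in steady state was -0.0026, Fgf4 at 10 min -0.0073 and Etv5 at 5 min 0.016 between genotypes. With centring Etv5 at 5 min was 0.029, or 0.056 in the fit of all 12 libraries. Without single libraries, genotype differences in steady state ranged from -0.13 to 0.11 for Spred2, -0.24 to 0.52 for Dusp6 and -0.059 to 0.023 for Etv5. At 5 min they ranged from -0.41 to 0.14 for Fgf4, -0.56 to 0.023 for Fgfr1, -0.018 to 0.45 for Dusp6 and -0.14 to 0.061 for Etv5, and at 10 min from -0.17 to 0.020 for Fgfr1.

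For recovery on the values as deposited, Etv5 at 5 min was -0.48 in WT and -0.49 in the libraries labelled EloA null, and Fgf4 in the latter -0.38. With quantile normalization Fgf4 was -0.026 and -0.53 in WT at 5 and 10 min and -0.44 and -0.59 in the libraries labelled EloA null, Etv5 was -0.59, -0.34, -0.55 and -0.52, and Etv4 at 10 min 0.096 in the latter. Scaled on genes under 10 kb, Etv5 was -0.093 (WT, 5 min) and -0.033 (EloA null label, 10 min), Fgf4 at 10 min -0.0051 and -0.16, and Etv4 at 10 min -0.025 in WT. Without single libraries the 10-min changes labelled EloA null ranged from -0.075 to 0.31 for Fgf4 and -0.24 to 0.025 for Etv4.

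For the change of the genotype difference, Etv5 at 5 min was -0.019 on the values as deposited, Spry4 at 5 min -0.032 with quantile normalization, and Spred1 at 10 min 0.038 with a pseudocount of 1 and 0.22 with quantile normalization. Without single libraries Dusp6 at 5 min ranged from -0.16 to 0.63, and at 10 min Fgf4 from -0.29 to 0.089, Spry4 from -0.40 to 0.092, Spred1 from -0.20 to 0.069 and Spred2 from -0.22 to 0.027. Depth limits Dusp6 most, with 17 reads in its shallowest library.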

Other observations

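The genes whose scaled log2 levels followed each member most closely over the 12 libraries were taken from 7341 or 7342 genes over 0.5 RPKM in all 6 groups. The correlations describe 12 libraries that share 6 groups, so that condition and genotype both enter them. For Spry4 the closest were Acad11 (Pearson r = 0.986), Gpalpp1 (0.982) and Mfsd4b4 (0.981). For Fgfr1 they were Coro1c (0.994), Stk24 (0.986) and Helq (0.986), and for Spred1 Dhx40 (0.988), Ppip5k2 (0.984) and Atp2a2 (0.980). Spred2 was most like Ube4b (0.978), Rras2 (0.978) and Asxl1 (0.975), and Etv5 was most like Polr2b (0.960), Golga3 (0.950) and Eif2s3y (0.929). For the short genes the values were 0.949, 0.946 and 0.937 for Rpl32, Epop and Ccdc71 with Fgf4, and 0.928, 0.926 and 0.918 for Cox5b, Coa4 and Ndufb11 with Dusp6. Those of Etv4 were Dlgap5 (0.941), Nisch (0.939) and Tspan14 (0.926), which all lie on chromosome 14, whereas Etv4 lies on chromosome 11.

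Among the 8 genes themselves, the highest correlation over the 12 libraries was between Spry4 and Dusp6 (r = 0.844), and the lowest between Fgfr1 and Spry4 (r = -0.883). Fgfr1 and Spred1, of like span, had r = 0.830, and Spred1 and Spred2 0.441.

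The sum of the levels of the 8 genes was 39.0 and 39.1 RPKM in WT and 40.7 and 46.8 in the libraries labelled EloA null in steady state. It was 30.2 and 31.0 against 27.9 and 34.4 at 5 min, where the groups overlapped, and 46.7 and 45.5 against 53.5 and 48.9 at 10 min.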
